A study of Bos taurus with 40 samples.

Results

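In cattle endometrium, the lining of the uterus, 38 of 32671 genes had a low level on days 5 and 7 and a level at least 5 times as high on both days 13 and 16 in the horn away from the corpus luteum. They were chosen on CPM, the reads of a gene per 1000000 reads of its library, in the contralateral horn alone. A gene was kept where its mean was at least 5 CPM on day 13 and on day 16, the day 16 mean lay between 0.5 and 2 times the day 13 mean, and the means of days 5 and 7 were each at most 0.2 of the lower late mean. These limits were met by 44 genes, and 6 of them (IGFBP1, MUC13, MEP1B, CFTR, CST6 and PTGS2) were set aside by name, which left 38. Of these, 27 carry a gene symbol and 11 a numbered locus name. The contralateral values therefore describe the choice and are given without a test. The tests below use the ipsilateral libraries, whose values the limits did not use. The limits and the genes set aside were, however, fixed with earlier results of these data known.

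The corpus luteum is the ovarian gland that secretes progesterone after ovulation, and the horn next to it is called ipsilateral, the opposite one contralateral. Poly(A) RNA of homogenised endometrium from 20 heifers was sequenced from both horns, with 5 ipsilateral and 5 contralateral libraries on each of days 5, 7, 13 and 16, which makes 40 libraries in 8 groups. The labels name the days as days of pregnancy, while the design text counts them after estrus in synchronized heifers, so whether an embryo was present is not given. The labels give no treatment, breed or genotype that separates the groups. The 5 libraries of a group carry different heifer tags, and p-values measure the spread between these samples. A homogenate holds every cell type of the tissue, and more cells of a type cannot be told apart from more RNA per cell.

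Library totals ranged from 27.154 to 64.417 M reads. On the first principal component of the 2000 most variable genes, which held 48.2% of the variance, the ipsilateral day 16 library with tag 5-137 lay at 8.2, against 34.4 to 41.6 for the other 4 ipsilateral day 16 libraries. All 20 libraries of days 5 and 7 lay between -37.9 and -24.1. The tags did not pair the horns in the values. The library of the other horn with the most similar deviation from its group mean carried the same tag in 5 of 20 cases, and the correlation within a tag, across 2000 genes, ranged from -0.445 to 0.920 with a median of -0.0547. The best matches nevertheless formed 1 to 1 pairs on every day, with 20 different contralateral libraries for the 20 ipsilateral ones and correlations of 0.187 to 0.935. Whether tags were exchanged in a horn was not tested, so a tag below names a library of its own horn and day and need not name the same heifer in both horns. Horns are therefore set side by side as groups and never tag by tag.

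In a uterus under progesterone, the luminal and glandular epithelium changes its transport and secretion before implantation, and the fluid it makes feeds the elongating embryo. Progesterone receptor is lost from the epithelium after several days of exposure to the hormone, and many epithelial genes turn on around that time. Glucose transporters, ion channels, junction proteins and secreted proteins of the epithelium are among the genes known for such a change in ruminants.

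The description of these genes as being on only late does not hold for all of them. In the contralateral horn, 26 of the 38 had a mean of at least 1 CPM on both day 5 and day 7, 10 had at least 10 CPM on both days, and 5 stayed under 1 CPM on both. All 38 had reads in every library of days 13 and 16, 32 had reads in all 40 libraries, and the remaining 6 lacked reads in at least 1 early library. They are better called genes high on days 13 and 16. The genes nearest to the limit of 0.2 inside it were CRIM1, with an early mean at 0.168 of the late one, GMPR at 0.167 and LOC104975545 at 0.167. Just outside it lay LRRC66 at 0.201, LOC101903556 at 0.201 and RASA4B at 0.202.

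In the ipsilateral horn, every one of the 34 genes that could be tested without a built-in difference was higher on days 13 and 16 than on days 5 and 7. The edgeR quasi-likelihood test compared the mean of the 10 late with that of the 10 early ipsilateral libraries over 19733 genes, at a Benjamini-Hochberg adjusted p below 0.05. It called 23.3% of all genes tested as higher and 22.2% as lower. All 38 genes passed the filter on low counts, but CALB1, LOC101905163, LOC104970005 and UNC45B would not have passed on the early libraries alone. A difference was built into the test of these 4, so their values are given as a description with no p. The largest adjusted p among the other 34 was 0.00061. Their median log2 fold change was 3.56, from 1.85 for STAC to 5.37 for LOC519127, where the median of all genes tested lay at 0.00 to 2 decimals. At least an 8-fold difference was fitted for 26 of the 34 and at least a 4-fold difference for 33, and 27 were among the 100 highest fold changes of all genes. The 4 genes kept apart had fitted log2 fold changes of 4.09 to 11.08. The contralateral libraries came from the same 20 heifers, so the ipsilateral values are another tissue sample and not another set of animals.

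Levels did not overlap between the 10 late and the 10 early ipsilateral libraries for 35 of the 38 genes, with all late libraries above all early ones. Among all 19731 genes compared in this way, 4.61% had this order. The 35 include CALB1, LOC101905163 and LOC104970005, which were among the genes compared only through their late libraries. For them the order is a description and is not set against that share. LOC100297225, STAC and UNC45B overlapped. Without library 5-137 the same 35 genes had no overlap and the share of all genes was 5.05%. The step lay between days 7 and 13. In the ipsilateral day 13 against day 7 test with edgeR, all of these 34 genes were higher, against 14.6% of all genes tested, with a median log2 fold change of 3.14 and a range from 2.01 for EMB to 4.55 for CHGA. The 4 genes kept apart had fitted values of 3.38 to 11.90, given without a p for the same reason.

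**Figure D1:**
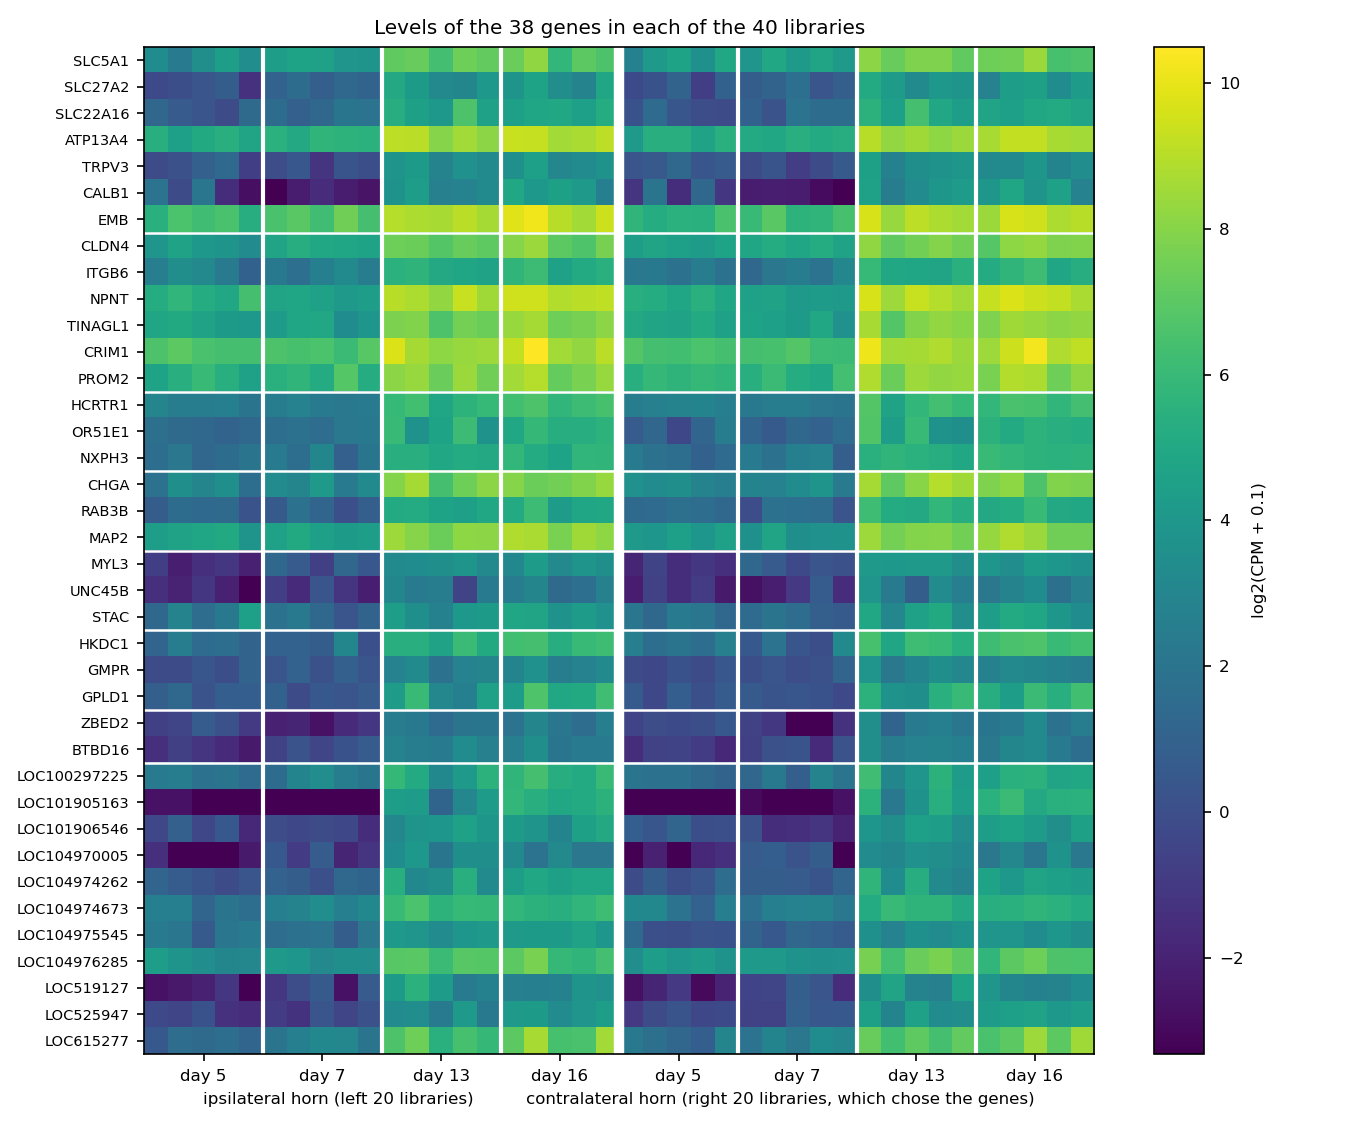
Levels of the 38 genes (rows, grouped by role) in each of the 40 libraries (columns, by horn and day), as colour on the log2(CPM + 0.1) scale. The ipsilateral libraries on the left show the same step between days 7 and 13 as the contralateral libraries that chose the genes, and in the row of LOC101905163 nearly all early libraries are at or near 0.

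**Figure D2:**
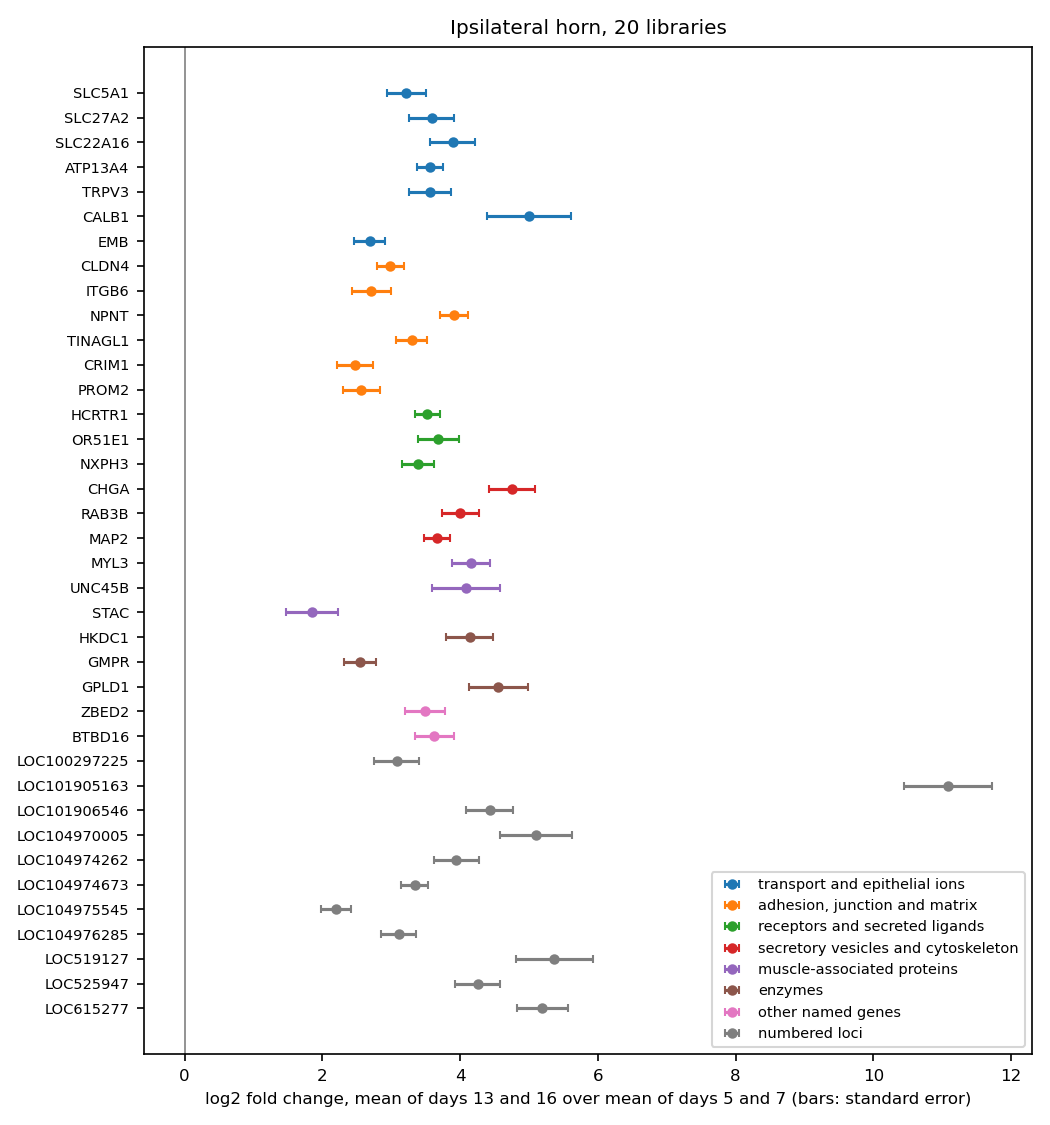
Ipsilateral log2 fold change of the mean of days 13 and 16 over the mean of days 5 and 7 for the 38 genes, with bars for the standard error, coloured by role. The 34 genes tested without a built-in difference range from 1.85 for STAC to 5.37 for LOC519127. The points of CALB1, LOC101905163, LOC104970005 and UNC45B, at 4.09 to 11.08, had a difference built in and are a description only.

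Transport and ion handling had 7 of the genes, with a median log2 fold change of 3.56 that includes CALB1, 1 of the 4 genes kept apart. SLC5A1, the sodium-glucose cotransporter, had 10.4, 5.23, 11.2, 20.6 and 10.7 CPM in the ipsilateral libraries of day 5 and 20.7, 26.2, 24, 14.8 and 13.9 CPM on day 7. It had 139, 156, 83.9, 174 and 147 CPM on day 13 and 161, 289, 55.8, 127 and 98.3 CPM on day 16. The lowest late library, 5-137 on day 16, was still above the highest early one. The fitted difference for SLC5A1 was 3.22 ± 0.28 (log2 fold change ± SE, edgeR adjusted p = 6.14e-08).

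SLC27A2, which carries and activates fatty acids, had a lowest, median and highest level of 7.21, 15.2 and 32.8 CPM in the late ipsilateral libraries, against 0.29, 1.67 and 2.82 CPM in the early ones, a log2 difference of 3.59 ± 0.33. SLC22A16, a carnitine transporter, had 16.7, 25.7 and 99.8 CPM late against 0.785, 2.35 and 3.98 CPM early, and its log2 difference was 3.89 ± 0.33. Both fatty acid related genes were thus clear of their early levels in every late library. EMB, or embigin, a membrane partner of monocarboxylate transporters, had 380, 504 and 1160 CPM late against 39.1, 88.7 and 183 CPM early. Its log2 difference of 2.69 ± 0.22 was the lowest of the 7 in this role.

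ATP13A4 encodes a P5-type transport ATPase, and its lowest, median and highest levels were 251, 485 and 641 CPM in the late ipsilateral libraries against 22, 41.5 and 52.9 CPM in the early ones. The log2 difference was 3.56 ± 0.18, among the most precise of the 38 (edgeR adjusted p = 2.69e-10). TRPV3, a calcium-permeable channel, had 7.18, 12.3 and 22.5 CPM late against 0.33, 0.932 and 2.57 CPM early, also a log2 difference of 3.56, with an SE of 0.30. CALB1, the calcium-binding protein calbindin, had 3.76, 0.807, 4.24, 0.25 and 0.0484 CPM on day 5 and 0, 0.113, 0.24, 0.115 and 0.0634 CPM on day 7. On day 13 it had 13.6, 20.3, 6.26, 6.90 and 9.24 CPM and on day 16 it had 30.6, 16.4, 22.9, 17 and 6.22 CPM. Day 5 was uneven for CALB1, with tags 1-315 and 4-184 far above the rest, and day 7 was near 0 in all 5 libraries, yet no early library reached a late one. The fitted log2 difference of CALB1 was 5.00 ± 0.61.

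Adhesion, junction and matrix proteins had 6 of the genes, with a median log2 fold change of 2.85. NPNT, the matrix protein nephronectin, had 37.7, 55.0, 38, 30.3 and 85.3 CPM in the ipsilateral libraries of day 5 and 26.6, 28.3, 24, 17.9 and 21.6 CPM on day 7. It had 513, 438, 307, 644 and 371 CPM on day 13 and 726, 724, 472, 534 and 578 CPM on day 16. The highest early library, 8-1350 of day 5, was far below the lowest late one, and the log2 difference of NPNT was 3.91 ± 0.21 (edgeR adjusted p = 3.15e-10). TINAGL1, a matricellular protein of basement membranes, had a lowest, median and highest level of 101, 209 and 392 CPM late against 10.4, 22.1 and 33 CPM early, a log2 difference of 3.30 ± 0.22.

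CLDN4, a claudin of tight junctions, had 103, 163 and 343 CPM as its lowest, median and highest level in the late ipsilateral libraries, against 10.2, 25.3 and 38.4 CPM in the early ones. ITGB6 is an integrin subunit of epithelia and had 23.9, 39.2 and 71.2 CPM late against 1.84, 5.66 and 11.2 CPM early. Their log2 differences were 2.99 ± 0.20 for CLDN4 and 2.71 ± 0.28 for ITGB6, and neither overlapped. PROM2, a prominin of membrane protrusions, had 149, 300 and 490 CPM late against 24, 41.1 and 114 CPM early. Its highest early value belonged to day 7 tag 5-117 and came closer to the late range than any other early library did, and the log2 difference was 2.57 ± 0.27.

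CRIM1, a membrane protein that binds bone morphogenetic proteins, had the widest spread of this role on day 16. Its ipsilateral levels were 98.4, 127, 90.8, 84.6 and 84.0 CPM on day 5 and 99.5, 87.2, 94.8, 67.5 and 121 CPM on day 7. On day 13 they were 862, 392, 279, 325 and 355 CPM, and on day 16 they were 598, 1444, 376, 306 and 535 CPM. On each late day 1 library stood far above the rest, 4-1314 on day 13 and 3-155 on day 16, while the other late libraries were all above the early ones. The log2 difference of CRIM1 was 2.47 ± 0.27 (edgeR adjusted p = 6.12e-07), and it ranged from 2.22 to 2.55 over the alternative fits and with each library left out.

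Receptors and secreted ligands had 3 of the genes, with log2 fold changes from 3.39 to 3.68. HCRTR1, the orexin receptor known from neurons that regulate wakefulness, had a lowest, median and highest level of 27.5, 65.7 and 99.9 CPM in the late ipsilateral libraries against 3.92, 5.68 and 7.86 CPM in the early ones. Its log2 difference was 3.53 ± 0.18 (edgeR adjusted p = 2.69e-10). NXPH3, a secreted neurexophilin that in the brain binds neurexins, had 25.4, 38.8 and 57.2 CPM late against 1.82, 3.48 and 7.88 CPM early, a log2 difference of 3.39 ± 0.23. HCRTR1 and TINAGL1 stand close together on chromosome 2, with 1 gene between them in the RefSeq annotation of another cattle assembly.

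OR51E1, a member of the olfactory receptor family that is also found outside the nose, split its ipsilateral day 13 libraries. Its levels there were 65.9 and 71.2 CPM in tags 4-1314 and 6-203, against 13.5, 25.7 and 12.9 CPM in tags 5-140, 5-167 and 8-275. On day 16 they were 31.6, 59.9, 39.2, 39.1 and 48.9 CPM, and no early library exceeded 4.75 CPM. The next gene on chromosome 15 is LOC104974262, also among the 38, with 41.6 and 42.7 CPM in the same 4-1314 and 6-203 libraries of day 13 and 8.56, 11.3 and 9.76 CPM in the other 3. In the contralateral day 13 libraries both genes were again high in a pair of libraries, labelled 4-1314 and 5-167, with 106 and 63.3 CPM for OR51E1 and 51.9 and 39.1 CPM for LOC104974262. These 2 libraries were also the best matches across genes of ipsilateral 4-1314 (correlation 0.563) and 6-203 (0.851), so the different tags do not show that they came from different heifers. No gene lies between them in that annotation, and the strand setting of the counting is not stated in the labels, so that reads of these neighbours cannot be told apart with certainty. Their log2 differences were 3.68 ± 0.30 for OR51E1 and 3.95 ± 0.32 for LOC104974262.

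Secretory vesicles and the cytoskeleton had 3 of the genes. CHGA, chromogranin A, the core protein of dense secretory granules in neuroendocrine cells, had 3.42, 11.7, 7.74, 11.6 and 3.12 CPM in the ipsilateral libraries of day 5 and 9.95, 7.80, 17.4, 5.07 and 9.47 CPM on day 7. It had 242, 396, 85.6, 175 and 274 CPM on day 13 and 258, 170, 191, 235 and 325 CPM on day 16. Every late library was far above every early one, and the log2 difference was 4.75 ± 0.33 (edgeR adjusted p = 5.66e-09). RAB3B, a small GTPase of regulated exocytosis, had a lowest, median and highest level of 19.9, 30.9 and 70.4 CPM late against 0.951, 1.95 and 3.56 CPM early, a log2 difference of 4.01 ± 0.27. MAP2, a protein that binds microtubules and marks dendrites of neurons, had 168, 284 and 463 CPM late against 14.0, 23.2 and 34 CPM early, a log2 difference of 3.66 ± 0.19.

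Of the 3 genes known from muscle, MYL3, a myosin light chain, did not overlap between the late and early ipsilateral libraries, and UNC45B and STAC did. MYL3 had 8.63, 11.1 and 19 CPM as its lowest, median and highest level late against 0.124, 0.499 and 2.34 CPM early, a log2 difference of 4.15 ± 0.28. UNC45B, a chaperone for myosin, had 0.624, 5.40 and 8.07 CPM late against 0, 0.251 and 1.14 CPM early. The low late value of UNC45B belonged to day 13 tag 6-203 alone, and the fitted log2 difference was 4.09 ± 0.49.

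STAC, an adaptor of voltage-gated calcium channels, had the smallest difference of the 38. Its ipsilateral levels were 2.45, 7.14, 2.93, 4.71 and 21.9 CPM on day 5 and 3.51, 4.72, 2.31, 1.15 and 2.03 CPM on day 7, followed by 20.4, 11.7, 6.59, 16.6 and 18.4 CPM on day 13 and 29.1, 26.3, 13.1, 20.1 and 12.5 CPM on day 16. The 21.9 CPM of day 5 tag 8-1350 lay among the late values and the 7.14 CPM of tag 3-175 above the lowest of them, and the fitted log2 difference was 1.85 ± 0.38 (edgeR adjusted p = 0.00061). That library had a summed level of 4553 CPM over 9 smooth muscle markers, against 705 to 957 CPM in the other 4 ipsilateral day 5 libraries, and the part of this in the STAC and NPNT values was not tested. The 2 late day groups had smooth muscle sums of 374 to 952 CPM on day 13 and 299 to 808 CPM on day 16.

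Enzymes had 3 of the genes. HKDC1, a hexokinase-like protein, had a lowest, median and highest level of 24.8, 53.3 and 86.2 CPM in the late ipsilateral libraries against 0.919, 2.12 and 7.93 CPM in the early ones, a log2 difference of 4.14 ± 0.34. GMPR, which converts GMP to IMP, had 3.55, 7.26 and 12.4 CPM late against 0.795, 1.17 and 2.01 CPM early, a log2 difference of 2.55 ± 0.24. Neither of these genes overlapped between the late and early days. GPLD1, a phospholipase that releases proteins from their lipid anchor, varied most between heifers on day 13, with 19.2, 64.1, 8.43, 6.15 and 24.1 CPM. Its levels on day 16 were 20.2, 102, 29.5, 33.7 and 77.6 CPM, against 0.791 to 2.42 CPM in the early libraries, a log2 difference of 4.56 ± 0.43 (edgeR adjusted p = 1.51e-07).

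ZBED2, a zinc finger protein, had 2.75, 4.05 and 7.64 CPM as its lowest, median and highest ipsilateral level late against 0.06, 0.38 and 1.55 CPM early. BTBD16, a BTB domain protein, had 4.06, 5.74 and 11.6 CPM late against 0.0967, 0.522 and 1.52 CPM early. Both stayed at a few CPM on the late days, and their log2 differences were 3.49 ± 0.29 and 3.62 ± 0.28.

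The 11 numbered loci had a median log2 fold change of 4.26, with LOC101905163 and LOC104970005, which had a built-in difference, included. Their annotation is thin: 5 of them had no match in the reference table of cattle genes, LOC101905163 and LOC101906546 are listed there as long noncoding RNAs, and LOC525947 is listed by its gene ID as INHCA, an inhibitor of carbonic anhydrase. LOC101905163 came nearest to being absent early. It had 0.0611 and 0.0621 CPM in the ipsilateral day 5 libraries 1-315 and 3-175 and no read in the other 8 early libraries, which makes 6 reads in all. On day 13 it had 21.4, 19.1, 2.09, 8.21 and 19.97 CPM and on day 16 it had 57.7, 41.3, 30.5, 34.4 and 46.6 CPM, a total of 8935 reads. The pooled level of the late libraries was 1727 times that of the early ones, with an exact Poisson 95% interval of 794 to 4707 that covers counting error only. The fitted log2 fold change of 11.08 ± 0.64 depends on the small count that the fit adds to libraries at 0. It is a description and is not ranked among all genes, since this gene passed the count filter only with its late libraries.

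LOC615277 was uneven between heifers, with 99.4, 174, 44.1, 88.8 and 59.3 CPM on ipsilateral day 13 and 129, 415, 88.7, 93.1 and 377 CPM on day 16, against 1.31 to 8.60 CPM in the early libraries. Its 2 highest day 16 libraries, 3-155 and 8-245, were also the 2 highest for GPLD1. The log2 difference of LOC615277 was 5.19 ± 0.37. LOC519127 had 4.87, 9.76 and 46.5 CPM as its lowest, median and highest level late against 0, 0.248 and 1.46 CPM early, a log2 difference of 5.37 ± 0.56, and LOC104970005 had 3.8, 9.17 and 16.4 CPM late against 0, 0.224 and 1.5 CPM early, a log2 difference of 5.10 ± 0.53.

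LOC101906546 and LOC525947 differed by 4.43 ± 0.34 and 4.26 ± 0.33 on the log2 scale. LOC525947, or INHCA, had 4.74, 12.8 and 20.9 CPM as its lowest, median and highest level late against 0.242, 0.643 and 1.17 CPM early. Smaller log2 differences were fitted for LOC104974673 with 3.34 ± 0.19, LOC104976285 with 3.11 ± 0.25, LOC100297225 with 3.08 ± 0.33 and LOC104975545 with 2.20 ± 0.21. LOC100297225 was 1 of the 3 genes whose days overlapped, since its lowest late library, day 13 tag 5-167 with 8.61 CPM, lay below the 10.8 CPM of day 7 tag 4-064.

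The early days were not alike for all of these genes. In the edgeR test of ipsilateral day 7 against day 5, 8 genes were higher on day 7, or 21.1% of the 38 where 15% of all genes tested were higher, and 4 were lower, or 10.5% where 13.7% of all genes were lower. These shares are near the background, so the 38 as a list did not stand apart, and the median log2 fold change was 0.35. The single genes differed by much more. MYL3 had 2.34, 1.44, 0.51, 2.25 and 1.24 CPM on day 7 against 0.489, 0.124, 0.283, 0.357 and 0.145 CPM on day 5, with no overlap, a log2 difference of 2.53 ± 0.40 (edgeR adjusted p = 0.000206). BTBD16 had 0.531, 1.07, 0.629, 1.01 and 1.52 CPM on day 7 against 0.275, 0.512, 0.318, 0.214 and 0.0967 CPM on day 5, also without overlap, a log2 difference of 1.72 ± 0.40 (edgeR adjusted p = 0.00387). The tight junction gene CLDN4 had 25.8 to 38.4 CPM on day 7 against 10.2 to 24.8 CPM on day 5, again without overlap, a log2 difference of 0.91 ± 0.27 (edgeR adjusted p = 0.0159). LOC104970005 was higher by 3.33 ± 0.82 on the log2 scale, LOC519127 by 2.78 ± 0.85, LOC615277 by 1.36 ± 0.48, SLC27A2 by 1.27 ± 0.45 and LOC104974673 by 0.87 ± 0.26.

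In the opposite direction, the zinc finger gene ZBED2 was lower on day 7 than on day 5 by a log2 difference of -2.05 ± 0.43 (edgeR adjusted p = 0.00189). The matrix gene NPNT was lower by -1.08 ± 0.27 (edgeR adjusted p = 0.00579). The calcium-binding CALB1 had a fitted difference of -3.97 ± 0.94, with 0 to 8 reads in the day 7 libraries. Its values here are a description without a p, since it passed the count filter only with its late libraries. ZBED2 had 0.142, 0.169, 0.06, 0.231 and 0.348 CPM on day 7 against 0.52, 0.636, 1.55, 0.964 and 0.411 CPM on day 5. No library of day 7 reached one of day 5 for ZBED2 or NPNT, while CALB1 overlapped. These genes were thus lowest on day 7 and not on day 5, and they then had their step to day 13, by log2 differences of 4.41 ± 0.44 for ZBED2, 4.25 ± 0.30 for NPNT and 6.64 ± 0.96 for CALB1. STAC was lower on day 7 by -1.57 ± 0.54 (edgeR adjusted p = 0.0366), and without library 8-1350 this was -0.62 with an adjusted p of 0.285. Of the 12 genes called between days 7 and 5, 7 kept their call without each of the 20 libraries. The share among all genes called is not given, so this count is a description and no result about the list. SLC27A2, LOC615277, STAC, LOC519127 and LOC104974673 lost the call without at least 1 library. The 4 kept as higher were MYL3, BTBD16, CLDN4 and LOC104970005, the last as a description only. For CALB1, a description only, the call was kept without each library and lost with limma-voom.

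Beside these differences, the summed level of 13 epithelium markers, CLDN4 not among them, was 1516 to 1992 CPM in the ipsilateral libraries of day 7 against 949 to 1546 CPM on day 5, and that of 11 stroma markers was 12250 to 25754 CPM against 23243 to 37534 CPM. None of these markers was at 0 on either day, and the part of this in the day 7 against day 5 values was not tested.

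**Figure D3:**
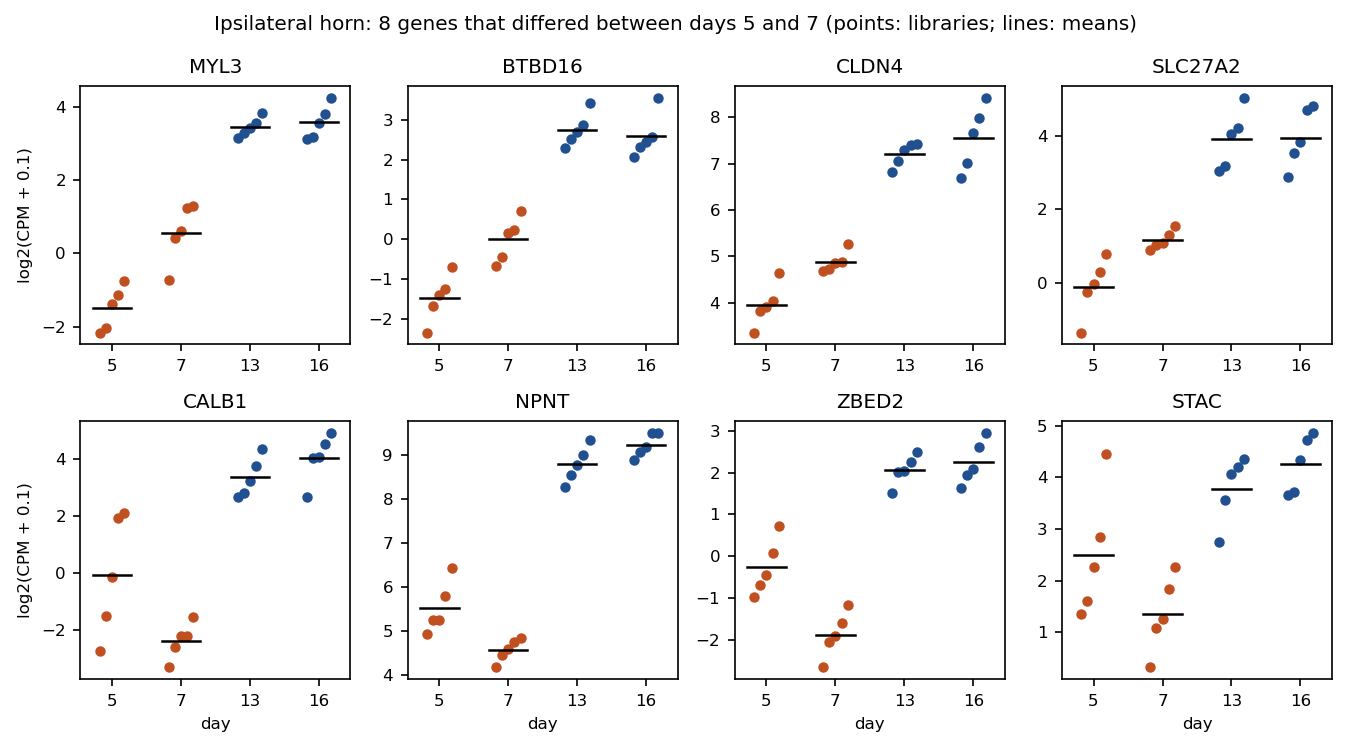
Ipsilateral levels of 8 genes that differed between days 7 and 5, on the log2(CPM + 0.1) scale, with a point for each library and a line for the mean of 5. The upper row (MYL3, BTBD16, CLDN4 and SLC27A2) was higher on day 7 than on day 5 and the lower row (CALB1, NPNT, ZBED2 and STAC) was lower, while the late days lie above both early days in each panel except that of STAC, where the day 5 libraries at 21.9 and 7.14 CPM overlap them.

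Between the late days, none of the 38 genes passed in the edgeR test of ipsilateral day 16 against day 13, where 0.193% of all genes were higher and 0.253% lower. For the next counts the share of all genes is not given, so they are a description and no result about the list. At an unadjusted edgeR p under 0.05 there were 3 of the 38. DESeq2 called 0, and limma-voom called 1, LOC101905163, with a log2 difference of 1.92. By edgeR that gene had 1.54 ± 0.46, the highest of the 38, and LOC519127 had the lowest at -1.09 ± 0.62. The values of LOC101905163 are again a description without a p, since it passed the count filter only with its late libraries. The fitted difference lay above 0 for 30 genes, with a median of 0.28 against -0.0036 for all genes tested, in log2 units. The rule limited the same ratio in the contralateral horn, and 4 genes went outside 0.5 to 2 in the ipsilateral means.

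The spread between heifers on the late days differed widely among the genes. The coefficient of variation over the 5 ipsilateral libraries of day 13 was 12.1% for EMB, 14.2% for NXPH3 and 16.7% for CLDN4, and at the other end it was 84.4% for SLC22A16, 87.0% for LOC519127 and 96.0% for GPLD1. The order was not kept on day 16, where EMB had 42.8%, SLC22A16 22.7% and OR51E1 25%, the last after 75.4% on day 13. A few libraries recurred at the ends. Tag 5-167 of day 13 was the lowest of the 10 late ipsilateral libraries for 17 of the 38 genes, and tag 5-137 of day 16 for 8. Shares of all genes are not given for these counts, so they are a description. On the first principal component, ipsilateral library 5-167 lay at 20.9, against 25.5 to 35.9 for the others of its day.

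Summed over the 38 genes, the share of all reads in the ipsilateral horn was 0.0444% ± 0.0056 on day 5, 0.0516% ± 0.0051 on day 7, 0.378% ± 0.0925 on day 13 and 0.512% ± 0.173 on day 16 (SD, n = 5 each). In the contralateral horn, where the sum was fixed by the choice of genes, it was 0.0437% ± 0.0028, 0.0440% ± 0.0056, 0.449% ± 0.147 and 0.496% ± 0.126 on the same days. The lowest late shares were 0.244% in ipsilateral day 13 tag 5-167, 0.289% in contralateral day 13 tag 5-140 and 0.334% in ipsilateral day 16 tag 5-137, and the highest was 0.765% in ipsilateral day 16 tag 3-155. Library 5-137 of the ipsilateral horn, set apart on the first principal component, thus kept a late level of these genes well above the 0.0592% that was the highest early share.

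**Figure D4:**
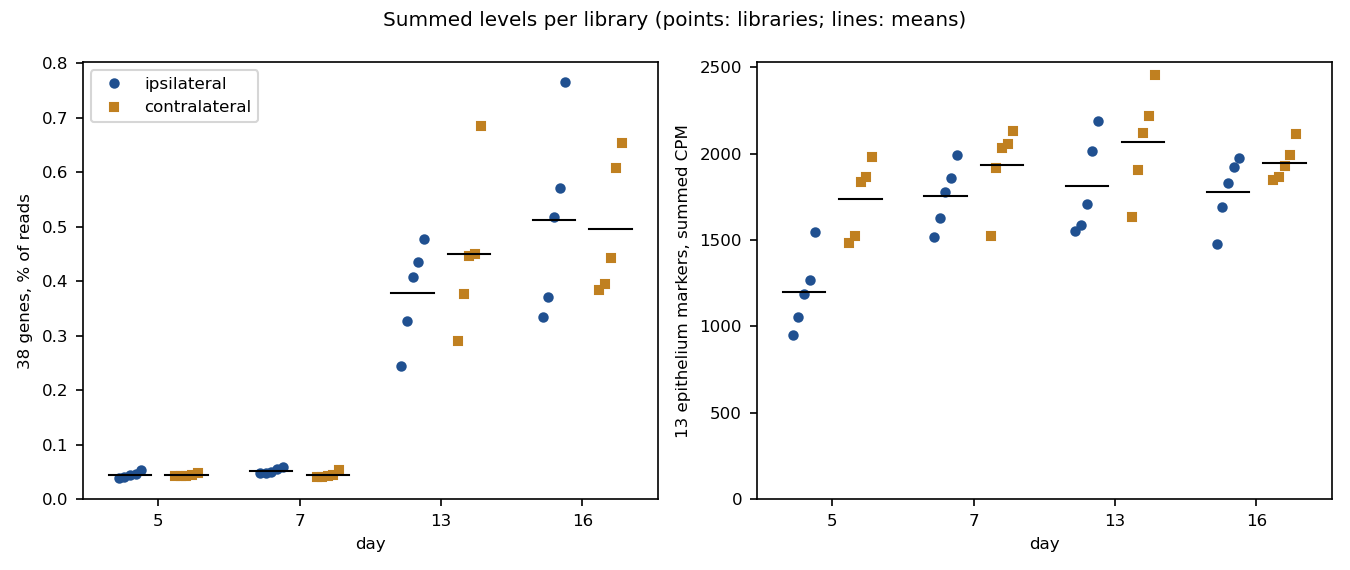
Left, summed share of reads of the 38 genes in each library by day and horn, in percent. Right, summed CPM of 13 epithelium markers that are not among the 38, in the same libraries; points are libraries and lines are means of 5. The share of the 38 genes is at most 0.0592% in every early library and at least 0.244% in every late one, while the epithelium markers of the ipsilateral horn overlap on days 7, 13 and 16 and are lower on day 5 (949 to 1546 CPM), where their range lies wholly below that of day 13.

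The horns were set side by side as a description, since contralateral values chose the genes. The limits asked for high contralateral means on days 13 and 16 and low ones on days 5 and 7. Shares of all genes are not given, and a horn difference of these genes beyond the choice was not tested. The ipsilateral mean was below the contralateral mean for 23 of the 38 genes on day 5, 15 on day 7, 31 on day 13 and 20 on day 16, and the median ratio of ipsilateral to contralateral means was 0.875, 1.13, 0.82 and 0.989 on those days. HKDC1, the hexokinase-like protein, had 41.6 ± 16.0 CPM in the ipsilateral and 58.9 ± 24.4 CPM in the contralateral libraries of day 13, and 68.4 ± 18.2 CPM against 82.1 ± 15.4 CPM on day 16. CHGA had 234 ± 115 CPM ipsilateral and 331 ± 139 CPM contralateral on day 13, and 236 ± 61.0 CPM against 215 ± 69.2 CPM on day 16 (SD, n = 5 each). LOC104975545 was the other way round on all 4 days, with 18.9 ± 3.73 CPM ipsilateral against 13.3 ± 2.15 CPM contralateral on day 16.

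The same limits applied to the ipsilateral means, with the same genes set aside, kept 28 genes. They shared 25 with the 38, which is 65.8% of the 38 and 89.3% of the 28. The 13 that met the limits in the contralateral horn alone were CLDN4, CRIM1, EMB, GMPR, GPLD1, PROM2, STAC, UNC45B, ZBED2, LOC101905163, LOC104975545, LOC519127 and LOC615277. Of these, 7 had an early mean above 0.2 of the late one in the ipsilateral horn, 2 had a late mean under 5 CPM and 4 had a day 16 to day 13 ratio outside the limits. PSPH, RASA4B and SLC39A2 met them in the ipsilateral horn alone.

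Other genes of uterine pathways moved both ways in the same ipsilateral late against early test. The lists below also hold the 6 genes that met the limits and were set aside, all of them higher late. IGFBP1, MUC13 and CST6 are among the secretions, MEP1B among the peptidases, CFTR in ion transport and PTGS2 among the lipid genes. The counts of higher genes in those lists thus partly restate the limits. PGR, the progesterone receptor, had 16.8 ± 2.78 CPM on day 5, 8.43 ± 2.03 on day 7, 4.04 ± 1.06 on day 13 and 5.78 ± 1.04 on day 16 (SD, n = 5 each). It was lower late by a log2 difference of -1.33 ± 0.13 (edgeR adjusted p = 3.30e-07), and the estrogen receptor ESR1 by -0.93 ± 0.13 (edgeR adjusted p = 7.90e-06). Among 29 steroid receptors and their uterine partners, 8 were higher and 10 lower, with a median of -0.11, and the lowest were the signalling ligand WNT7A with -4.53 and the hedgehog ligand IHH with -1.82.

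Nutrient transporters, the list that holds SLC5A1, had 7 of 28 tested genes higher and 8 lower, with a median log2 fold change of -0.07. SLC5A11, a sodium-coupled transporter of the same family as SLC5A1, was higher by 4.78 ± 0.38 from a low level (0.0681 and 0.201 CPM on days 5 and 7, 3.90 and 3.19 CPM on days 13 and 16). The glutamate transporter SLC1A1 was higher by 1.96 ± 0.16 and the fructose transporter SLC2A5 lower by -4.59 ± 0.83. Ion and water transport had 6 higher and 9 lower of 30, the sodium channel subunits SCNN1A with -1.60 and SCNN1B with -1.72 and the calcium channel TRPV6 with -1.58 among the lower ones.

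Of 17 brush border and surface peptidase genes, 8 were higher and 3 lower, with a median of 0.03, and the peptidases DPP4 with 2.76 and ANPEP with -3.20 were among them. Uterine gland and epithelium secretions had 14 higher and 7 lower of 32 with a median of 0.09. Lipid and prostaglandin genes had 6 higher and 7 lower of 22 with a median of -0.10, and mucosal defence genes had 3 higher and 4 lower of 13 with a median of -0.17. Of 29 interferon-stimulated genes, 0 were higher and 2 were lower, the chemokine CXCL10 with -1.34 and HERC5 with -0.55, 27 did not pass, and the median was -0.84.

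Cell type markers set the frame for these values. Of 14 epithelium markers, 4 were higher late, CLDN4 itself, EPCAM with 1.11, CLDN3 with 0.96 and ST14 with 0.63, KRT19 was lower with -0.79 and 9 did not pass, with a median of 0.06. Without CLDN4 the epithelium sum ranged from 1552 to 2187 CPM on ipsilateral day 13 and from 1478 to 1974 CPM on day 16, against 949 to 1546 CPM on day 5 and 1516 to 1992 CPM on day 7, so that it lay higher late than on day 5 except for an overlap with day 16. Stroma markers were higher in 1 and lower in 5 of 11, smooth muscle markers lower in 2 of 9, endothelium markers higher in 5 of 8, and macrophage and dendritic cell markers lower in 5 of 10. Gland markers were higher in 2 and lower in 1 of 5, multiciliated cell markers higher in 1 and lower in 1 of 10, T and NK cell markers lower in 1 of 10, and steroidogenic cell markers higher in 1 of 3. B and plasma cell markers passed in 0 of 5 and blood markers in 0 of 1 tested. Of the trophoblast markers, 1 was higher and 3 lower of 4 tested, and PAG11, TKDP1, TKDP4, CSH2 and PRP1 were at 0 in all ipsilateral libraries of days 7, 13 and 16. The part of these cell types in the values of the 38 genes was not tested.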

How the data were processed

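The deposited file is a table of raw read counts per gene in 40 libraries, with 32671 named genes and 1 mitochondrial genome row. FastQC, HISAT2, featureCounts and the cattle build UMD3.1 are named in the submitters' processing notes, and their versions and the annotation are not given in the sources used here. Libraries were made with a stranded Illumina mRNA kit, per the labels' protocols. How shared reads and strand were counted is not stated.

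CPM were computed as count over column total, mitochondrial row included. That row (0.0812% to 0.578% of a library) was left out of library sizes and tests. Genes whose names had turned into dates were not used. Tests were edgeR 4.0.16 quasi-likelihood tests with TMM factors and filterByExpr on the 20 ipsilateral libraries, 4 days in 1 fit, and Benjamini-Hochberg adjustment over 19733 genes. Each SE is the size of the log2 fold change divided by the square root of the F statistic of its test. For the 4 genes with a built-in difference this SE is a description only. The script was tested on simulated data. Alternatives were DESeq2 1.42.0, limma-voom (limma 3.58.1), RLE factors, no count filter, all 40 libraries in the fit, each library left out, and other limits of the rule. Column totals without the mitochondrial row were added after seeing the data.

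The 38 genes, the gene lists and the rules were chosen with earlier results of these data known. Names were given to the highest levels, the largest and smallest differences, the genes called between days, those nearest the limit of 0.2 and up to 4 genes per list, and the other members are given by role, with roles assigned after values were seen. Of the 38 names, 32 matched the RefSeq table of assembly ARS-UCD2.0 by symbol and 1 by gene ID, and no coordinates are printed since the builds differ. Promoter and protein sequences were not analysed here.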

Additional observations from a re-analysis of the deposited data

Results flagged for a closer look

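Single libraries stood apart from the other 4 of their group in 23 of 302 groups of 5 values, or 7.62%. The measure was the gap to the nearest library against the range of the group. Its cut-off gives about 1 in 20 by chance for independent, normally distributed values. CPM of genes in the same libraries need not be so, and the share is not read as an excess. They belong to 15 of the 38 genes, 19 as the highest and 4 as the lowest library of their group. All are CPM, and the nearest library of the group is not repeated for each.

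On the late days, the ipsilateral day 16 library 3-155 was set apart as the highest for CRIM1 with 1444 CPM, RAB3B with 70.4 CPM and BTBD16 with 11.6 CPM. Tag 4-1314 on day 13 was the highest for CRIM1 in both horns, with 862 CPM ipsilateral and 1149 CPM contralateral, and for BTBD16 in the contralateral horn with 11.1 CPM. SLC22A16 had 99.8 CPM in ipsilateral day 13 library 6-203, and RAB3B had 63.1 CPM in contralateral day 16 library 5-137. LOC104976285 was lowest with 69.5 CPM in ipsilateral day 13 library 5-167, and MYL3 with 11.2 CPM in contralateral day 13 library 8-275.

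On the early days, ipsilateral day 7 library 5-117 was highest for PROM2 with 114 CPM and HKDC1 with 7.93 CPM, and ipsilateral day 5 library 3-175 was highest for HKDC1 with 5.59 CPM. STAC had 21.9 CPM in ipsilateral day 5 library 8-1350. In the contralateral horn, MAP2 had 26.5 CPM in day 7 library 2-371, GMPR 2.14 CPM in day 7 library 6-338, UNC45B 1.52 CPM in day 7 library 5-117 and LOC101906546 0.986 CPM in day 7 library 2-1337. On contralateral day 5, SLC22A16 had 2.77 CPM in library 3-175, TRPV3 had 2.42 CPM in library 4-184 and LOC104975545 had 2.53 CPM in library 1-315. The lowest values set apart were 0.253 CPM for LOC101906546 in ipsilateral day 7 library 6-338 and 1.41 CPM for LOC104975545 in ipsilateral day 5 library 4-184.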

How the results depend on the processing

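All of the 34 genes tested without a built-in difference stayed higher late than early, and on day 13 than on day 7. This held under DESeq2, limma-voom, RLE factors, no count filter, all 40 libraries in the fit and without each of 20 libraries. The 4 genes with a built-in difference were higher in these fits too, which is a description only. Day 7 against day 5 changed most. Genes higher numbered 4 with limma-voom and 4 to 8 with a library left out (4 without day 7 tag 4-064, 5 without day 5 tag 3-175), and genes lower 2 with limma-voom and 3 to 4 with a library left out. Day 16 against day 13 gave 1 gene higher with limma-voom and 0 to 0 with a library left out. Shares of all genes called in these alternative fits are not given here. Whether the changes in these counts are particular to the 38 was therefore not tested. The number of genes chosen was 18 at an early limit of 0.1 and 84 at 0.3, and 35 to 45 without a contralateral library, with at least 35 of the 38 kept. It was 39 with TMM-scaled libraries, 52 and 32 at late minima of 2 and 10 CPM, and 39 without the mitochondrial row. Over 152 gene values and 25 alternatives each, 3766 of 3800 kept their side of the threshold, and 31 lost and 3 gained the call. The sign turned in 56, all without a call on either side, for 20 of the 152 values between days 7 and 5 or 16 and 13. The causes were not tested. No paired analysis was possible because the days hold different heifers and share no tags. Depth limits LOC101905163, with 6 early ipsilateral reads.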
